A study of Zea mays with 6 samples.

Results

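A group of 80 genes stood clearly higher in every library of zmte1-2 nodes than in any library of WT nodes. The genes were chosen by their measured levels. A gene was taken where its smallest zmte1-2 value was at least 1 FPKM (fragments per transcript kilobase, relative to library size) and at least 2 times its largest WT value. This took 80 of the 5546 listed genes, or 1.44%. The same rule turned round, with the smallest WT value at least 2 times the largest zmte1-2 value, took 621 genes, or 11.2%. Because the rule itself used the difference between the genotypes in all 6 libraries, that difference is given here as a description and was not tested. The listed genes are also not a sample of the genome, since the authors had already selected them on these libraries by a fold difference and a p-value.

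RNA was sequenced from nodes, with internodes according to the labels, of field-grown maize seedlings at 28 days, with 3 libraries of zmte1-2 and 3 of WT. The zmte1-2 mutant is a recessive dwarf that came from a chemically (EMS) mutagenised collection, carries a premature stop in ZmTE1 and was backcrossed to the inbred line B73, which is the WT. The paper does not state which line was mutagenised or how many backcrosses were made. Differences from B73 other than the one in ZmTE1 may therefore remain in zmte1-2. ZmTE1 encodes an RNA-binding protein of the Mei2-like family, a group of proteins best known from the control of meiosis in fission yeast. The sources do not state whether the library numbers 1 to 3 stand for separate plants, repeat libraries or node positions, and 3 nodes were taken. Each SD with n = 3 below is therefore the spread over these libraries, which may be technical or may hold differences between nodes. Nodes hold several tissues, and in such bulk RNA more cells of a type and more RNA per cell cannot be told apart.

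ZmTE1 itself (GRMZM2G085113, chromosome 3 from 165216844 to 165220769 in the table's own coordinates) was measured at 0.33, 0.1 and 0.49 FPKM in zmte1-2 libraries 1 to 3, against 0.51, 1.19 and 1 FPKM in WT libraries 1 to 3. The groups did not overlap, but a stop codon need not change the RNA level and the gene was near the lower end of the scale in both genotypes. The genome build behind these and all positions below was not given in the sources used here. Sequencing depth is likewise unknown, which leaves every value without a counting interval, and a value of 0 means only that the gene is listed at 0. Some libraries stood apart from the others of their genotype. Among the 2597 listed genes with at least 1 FPKM in every zmte1-2 library, zmte1-2 library 2 was the highest or the lowest of its 3 in 2238 genes, or 86.2%, and WT library 1 in 2125, or 81.8%, while the other libraries ranged from 41.3% to 76.4%. The deviations of these libraries from their group means correlated across genes at r = 0.50. The summed level of 14 listed genes for chlorophyll a-b binding proteins, which mark green tissue, came to 95.2, 134 and 112 FPKM in zmte1-2 and 671, 173 and 338 FPKM in WT. Meristem gene KN1 (GRMZM2G017087) was at 35.3, 81.7 and 17.0 FPKM in zmte1-2, against 143, 75.3 and 108 FPKM in WT. Summed over 7 genes, cellulose synthase A, which serves the cell wall, came to 282, 152 and 248 FPKM in zmte1-2 and 99.4, 132 and 129 FPKM in WT. One gene described as a zein, a storage protein of the endosperm, was at 0.9, 2.23 and 1.37 FPKM in zmte1-2 and 7.27, 4.19 and 5.79 FPKM in WT. None of these markers is among the 80 genes, and the part that a different tissue makeup of the samples has in the levels below was not tested.

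**Figure D1:**
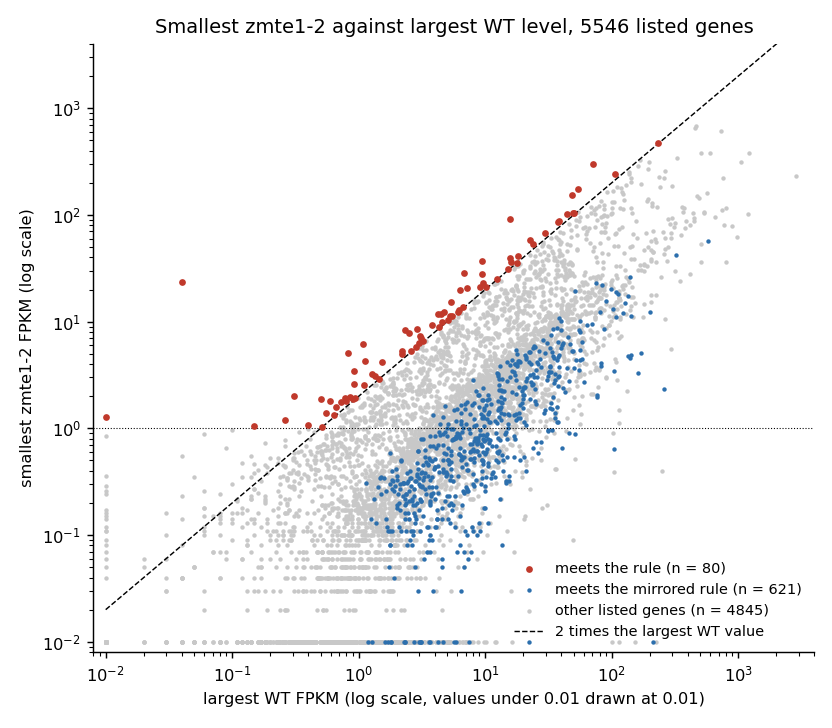
Smallest zmte1-2 FPKM against largest WT FPKM of each of the 5546 listed genes, both on log scales, with values near 0 drawn at the edge. The 80 genes (red) lie above the dashed line of 2 times the WT value and above the dotted line of 1 FPKM, most of them close to the dashed line. The 621 genes of the mirrored rule are blue.

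In plants, many compounds that deter insects and pathogens are built from aromatic amino acids, indole and phenolic rings. Cytochrome P450 enzymes, O-methyltransferases and glycosyltransferases then decorate these skeletons, and transporters of the MATE and ABC families move the products across membranes. Jasmonate, an oxygenated fatty acid hormone, is a well known inducer of such pathways. Auxin and gibberellin, which promote growth of the stem, are kept in balance partly by enzymes that conjugate, release or inactivate them. Genes from each of these groups were among the 80.

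The 80 genes ranged widely in level. Their mean in zmte1-2 ran from 1.45 to 691 FPKM with a median of 14.3 FPKM, while the median of their WT means was 3.28 FPKM. The medians over all listed genes were 2.07 FPKM in zmte1-2 and 3.50 FPKM in WT. The rule itself favours a higher level in zmte1-2. Only 2597 of the 5546 listed genes reach its minimum of 1 FPKM in every zmte1-2 library. A mean of at least 100 FPKM in zmte1-2 was found in 11 of the 80 genes, one of at least 10 FPKM in 48 and one of at least 5 FPKM in 58. Summed, the 80 genes came to 4373, 3467 and 3449 FPKM in zmte1-2 and 757, 1052 and 776 FPKM in WT, which was 4.93%, 3.94% and 3.90% of the listed FPKM in zmte1-2 and 0.913%, 1.42% and 0.900% in WT. The gap was modest for most of them, with a ratio of the smallest zmte1-2 to the largest WT value under 2.5 in 46 genes, of at least 3 in 20 and of at least 4 in 10. The ratio of the means had a median of 4.72 and quartiles of 3.48 and 6.32 over the 79 genes with WT levels above 0.

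Both the count and its balance against the mirrored rule depended on the scaling. The median log2 ratio of the means of zmte1-2 to WT was -1.23 over the 5399 listed genes above 0 in both genotypes, and 2.24 over the 79 such genes in the group. After median-of-ratios rescaling on the 4787 listed genes above 0 in every library, 459 genes met the rule and 128 the mirrored rule, in place of 80 and 621. All 80 genes were among the 459. This rescaling assumes that the listed genes have no common shift, and they were listed because they differed.

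The members nearest the fold were the long-chain acyl-CoA synthetase gene GRMZM2G101875 (ratio 2.004), GRMZM2G104332 (2.01), GRMZM2G164912 (2.01), GRMZM2G139293 (2.03) and AC199541.4_FG001 (2.03). Just outside it lay a gene described as a phosphatase (GRMZM2G033787, 1.99), amino acid permease 2 (GRMZM2G031167, 1.99), GRMZM2G093838 (1.98), GRMZM2G374405 (1.98) and GRMZM2G472226 (1.98). The fold but not the minimum was met, with a smallest zmte1-2 value just under 1 FPKM, by AC219020.4_FG002 at 0.98 FPKM, described as having a MYB DNA-binding domain, the zinc finger gene ZAT6 (GRMZM5G883760) at 0.97 FPKM and GRMZM2G177982 at 0.92 FPKM. In all, 632 listed genes, or 11.4%, had every zmte1-2 library above every WT library, 466 of them with at least 1 FPKM in each zmte1-2 library, and 2706, or 48.8%, had every zmte1-2 library below.

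Protein descriptions, orthology terms and transcription factor labels gave 53 of the 80 genes a role, and 27 had none that could be used. The roles, and the gene families counted below, were assigned after the values had been seen. A family taken up because it holds a member has at least 1 by construction. Where such a family is small, its share can stand above 1.44% for that reason alone. The largest group held 11 genes for wall, apoplast and defence proteins, followed by 8 genes for enzymes of secondary metabolism, 8 for membrane transport, 6 for indole, amines and aromatic amino acids, 6 for hormones and phase change, 5 for kinases, protein turnover and RNA, 4 for transcription factors, 3 for lipids and 2 for respiration and photorespiration. Word lists over descriptions and orthology gave another picture. They put 0 of the 210 listed defence protein genes and 0 of the 161 listed cell wall genes among the 80. The mirrored rule took 25 and 19 of these genes. Over all listed genes, 1.44% met the rule and 11.2% the mirrored rule. By description alone, 0 defence protein genes and 2 cell wall genes were among the 80.

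The group held 6 genes of the metabolism of indole, amines and aromatic amino acids. The most abundant was indole-3-glycerol phosphate lyase (GRMZM2G015892, chromosome 1 from 288257077 to 288259234), whose enzyme splits indole-3-glycerol phosphate and sets indole free. It was at 187, 41.4 and 130 FPKM in zmte1-2 libraries 1 to 3, against 2.67, 18.1 and 9.09 FPKM in WT libraries 1 to 3. Library 2 of zmte1-2 was far below the other two and library 2 of WT was the highest of its group, so the groups came closest there, at a ratio of 2.29. The means were 119 ± 73.4 FPKM in zmte1-2 and 9.96 ± 7.76 FPKM in WT (SD, n = 3 each), a 12-fold difference. A second gene with the same orthology, GRMZM2G046163, starts 81.4 kb away and was at 299, 61.0 and 195 FPKM in zmte1-2 and 6.61, 33.3 and 15.1 FPKM in WT. It had the same order of libraries within each genotype and missed the rule only through zmte1-2 library 2 and WT library 2.

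Tryptophan N-monooxygenase 2 (GRMZM5G891327) carries the name of an Arabidopsis enzyme that turns tryptophan into indole-3-acetaldoxime. It was low, at 1.08, 1.73 and 2.27 FPKM in zmte1-2, and was listed at 0.4, 0 and 0.27 FPKM in WT. Its gene model of 410 bases is short, and the value of 0 in WT library 2 cannot be told from a low level at unknown depth. Arogenate dehydrogenase 1 (GRMZM2G324297), which makes tyrosine from arogenate, was steadier than the others, at 7.06, 7.51 and 7.84 FPKM in zmte1-2 and 3.12, 3.12 and 2.42 FPKM in WT.

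Genes for enzymes that form amines and couple them to phenolic acids were also in the group. Tyrosine/DOPA decarboxylase 1 (GRMZM2G009400), which makes tyramine from tyrosine, was at 2.38, 1.31 and 1.06 FPKM in zmte1-2 and 0.15, 0.03 and 0.08 FPKM in WT. Its smallest zmte1-2 value was 7.07 times its largest WT value, one of the widest gaps of the group, though at a low level. Ornithine decarboxylase (GRMZM2G052288), which makes the polyamine putrescine, was at 5.62, 1.79 and 5.54 FPKM in zmte1-2 and 0.21, 0.78 and 0.79 FPKM in WT. Agmatine coumaroyltransferase (GRMZM2G013530), known in barley for joining coumaric acid to agmatine, was at 7.01, 4.51 and 4.25 FPKM in zmte1-2 and 0.74, 1.13 and 0.63 FPKM in WT. The ornithine decarboxylase and coumaroyltransferase genes start 224 kb apart on chromosome 7. Of the 7 listed genes for amine-forming decarboxylases, 2 met the rule (28.6%, against 1.44% of all listed genes) and none met the mirrored one (against 11.2%). Another, the arginine decarboxylase gene GRMZM2G396553, was higher in every zmte1-2 library with a smaller gap (175, 98.1 and 182 FPKM in zmte1-2, against 47.5, 77.6 and 84.6 FPKM in WT). Every zmte1-2 library was below every WT library in 1 of the 7 (14.3%, against 48.8% of all listed genes). With so few genes these shares are imprecise, and the family was chosen after the values had been seen.

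**Figure D2:**
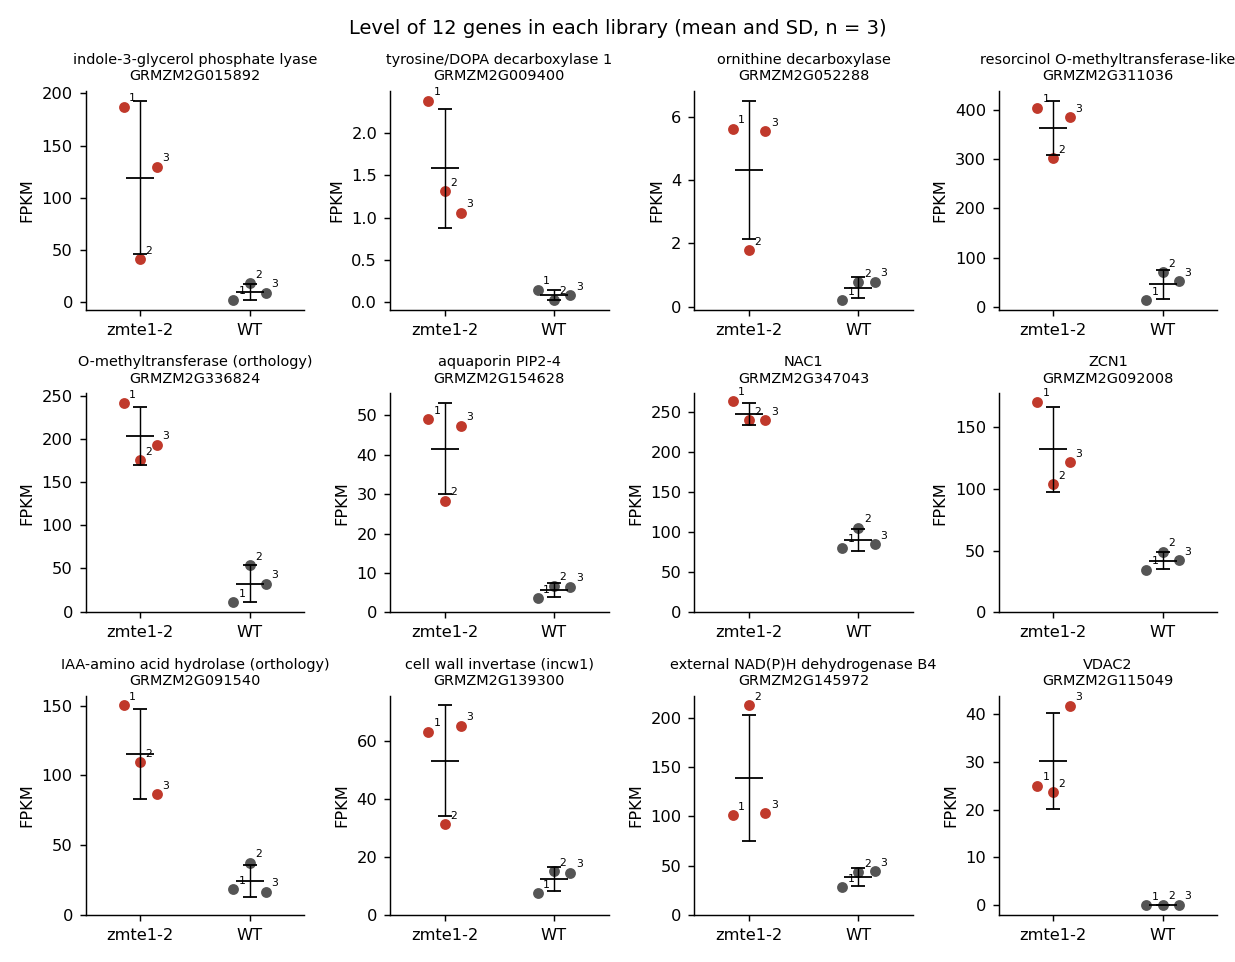
FPKM of 12 genes in each library, with zmte1-2 (red) left of WT (grey), the library number beside each point, and the mean and SD as a line and bars (n = 3 each). Indole-3-glycerol phosphate lyase, ornithine decarboxylase, aquaporin PIP2-4 and cell wall invertase were lowest in zmte1-2 library 2, while external NAD(P)H dehydrogenase B4 was highest there, at 213 FPKM. VDAC2 was at most 0.04 FPKM in WT.

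There were 8 genes for enzymes that modify phenolic and other secondary compounds, and the most abundant were both O-methyltransferases. GRMZM2G311036 (chromosome 1 from 66310637 to 66312743) is described as a pentadecatrienyl resorcinol O-methyltransferase, an activity known from sorghum, where it serves the synthesis of the root exudate sorgoleone. It was at 403, 301 and 385 FPKM in zmte1-2 and 14.6, 71.3 and 52.5 FPKM in WT. GRMZM2G336824 (66393409 to 66395849 on the same chromosome and strand) has the same orthology, that of a resveratrol O-methyltransferase, and was at 242, 176 and 193 FPKM in zmte1-2 and 10.5, 53.6 and 32.3 FPKM in WT. Both genes had the lowest WT value in library 1 and the highest in library 2, and their means in zmte1-2 were 7.88 and 6.33 times those in WT. Their starts are 82.8 kb apart, and another gene with this orthology, GRMZM2G023325, which shares the description of the first, lies 113 kb further on. It was at 11.9, 4.41 and 6.87 FPKM in zmte1-2 and 0.67, 3.03 and 1.07 FPKM in WT, with the same order of libraries in WT, and missed the fold. It is not known how reads common to such similar genes were assigned, so the levels of these copies may not be independent. Over the table, 15 O-methyltransferase genes were listed, of which 2 met the rule (13.3%, against 1.44% of all listed genes) and 1 the mirrored one (6.67%, against 11.2%).

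Cytochrome P450 enzymes insert oxygen into a wide range of small molecules. Cytochrome P450 93A3 (GRMZM2G329029) was at 70.1, 19.7 and 35.5 FPKM in zmte1-2 and 3.77, 6.35 and 3.42 FPKM in WT, a 9.26-fold difference of the means. The other two P450 genes share 1 P450 family orthology and were lower. GRMZM2G150907 was at 17.0, 11.2 and 12.5 FPKM in zmte1-2 and 5.41, 5.49 and 1.98 FPKM in WT, and GRMZM2G126055 was at 6.89, 3.23 and 6.82 FPKM in zmte1-2 and 0.76, 0.96 and 1.28 FPKM in WT. All of them were lowest in library 2 among the zmte1-2 libraries. Of 50 listed P450 genes, 3 met the rule (6%, against 1.44% of all listed genes) and 3 the mirrored rule (6%, against 11.2%). Every zmte1-2 library was above every WT library in 15 (30%, against 11.4%) and below in 12 (24%, against 48.8%).

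Glycosyltransferases of the UGT family attach sugars to small molecules. UGT708A6 (GRMZM2G162783), a maize enzyme that glucosylates flavanones, had the smallest ratio of means in the group at 2.33, and was steady at 5.32, 5.73 and 6.10 FPKM in zmte1-2 and 2.59, 2.23 and 2.55 FPKM in WT. AC199541.4_FG001, whose orthology is that of a salicylic acid glucosyltransferase, was at 8.11, 1.91 and 6.67 FPKM in zmte1-2 and 0.29, 0.92 and 0.94 FPKM in WT. It barely met the fold because of its low value in zmte1-2 library 2. A gene described as a neomenthol dehydrogenase (AC210013.4_FG006) was at 3.36, 2.55 and 1.97 FPKM in zmte1-2 and 0.86, 0.55 and 0.81 FPKM in WT. With the auxin-conjugating gene described next, 3 of the 25 listed UGT genes met the rule (12%, against 1.44% of all listed genes). The mirrored rule was met by 1 (4%, against 11.2%).

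Among the genes of hormone metabolism, auxin was represented by enzymes that release it and that conjugate it. GRMZM2G091540 has the orthology of an IAA-amino acid hydrolase, which frees indole-3-acetic acid (IAA, the main auxin) from its amino acid conjugates. It was at 150, 109 and 86.5 FPKM in zmte1-2 and 18.4, 37.5 and 16.7 FPKM in WT. Indole-3-acetate beta-glucosyltransferase (GRMZM2G022101), which conjugates IAA to glucose, was at 50.2, 21.2 and 32.7 FPKM in zmte1-2 and 10.1, 9.90 and 6.90 FPKM in WT. Both genes were thus higher in all zmte1-2 libraries although their enzymes act in opposite directions. GRMZM2G006964, with the orthology of gibberellin 2-oxidase, an enzyme that inactivates gibberellins, was at 21.0, 20.7 and 31.4 FPKM in zmte1-2 and 4.34, 5.42 and 7.22 FPKM in WT. Of 6 listed genes of that kind 1 met the rule (16.7%, against 1.44% of all listed genes) and 1 the mirrored rule (16.7%, against 11.2%). The latter, gibberellin 2-oxidase9 (GRMZM2G152354), was at 1.34, 0.93 and 0.48 FPKM in zmte1-2 and 11.4, 8.13 and 12.5 FPKM in WT.

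For jasmonate, 12-oxo-phytodienoic acid reductase 1 (GRMZM2G106303, opr1), a member of the reductase family that includes the enzymes completing the ring reduction in jasmonate synthesis, was at 7.26, 10.9 and 13.6 FPKM in zmte1-2 and 1.16, 3.05 and 2.52 FPKM in WT. It was the only one of 9 listed genes of jasmonate synthesis that met the rule (11.1%, against 1.44% of all listed genes), and none met the mirrored one (against 11.2%). With 9 genes, 1 member is enough for such a share. Without zmte1-2 library 2, 6 of the 9 met the rule, as did 546 of all 5546 listed genes. Of 12 listed JAZ genes, which encode repressors that jasmonate removes and whose transcripts it induces, none met either rule. Every zmte1-2 library was above every WT library in 4 of them (33.3%, against 11.4% of all listed genes) and below in none (against 48.8%).

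ZCN1 (GRMZM2G092008, chromosome 3 from 231199114 to 231200263) belongs to the maize family related to FLOWERING LOCUS T and TERMINAL FLOWER1, which set the timing of flowering and keep meristems indeterminate. It was at 170, 104 and 122 FPKM in zmte1-2 and 34.7, 49.1 and 42.0 FPKM in WT. Of 5 listed genes of this family 1 met the rule (20%, against 1.44% of all listed genes) and 2 the mirrored rule (40%, against 11.2%). These 2, both weakly expressed, were ZCN4 (GRMZM2G075081) and ZCN6 (GRMZM2G132880). A gene described as systemin receptor SR160 (GRMZM2G070322), a name taken from tomato, was evenly high at 87.3, 106 and 95.6 FPKM in zmte1-2 and 21.0, 38.1 and 29.2 FPKM in WT. Its gene model spans 1802 bases. Its receptor kinase orthology is also that of the polygalacturonase inhibitor gene GRMZM2G088531, so whether it encodes a kinase or a hormone receptor is not settled.

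A transcription factor label was carried by 4 of the 80 genes, 5% of them, as did 412 of the 5546 listed genes, or 7.43%. NAC1 (GRMZM2G347043, chromosome 1 from 292162441 to 292164227) was by far the most abundant, at 264, 240 and 240 FPKM in zmte1-2 and 80.6, 106 and 84.9 FPKM in WT. Its libraries were close within each genotype, with means of 248 ± 13.8 FPKM in zmte1-2 and 90.4 ± 13.5 FPKM in WT (SD, n = 3 each), a 2.74-fold difference. NAC proteins are a plant family with roles in stress, senescence and secondary walls. Of the 42 listed NAC genes 1 met the rule (2.38%, against 1.44% of all listed genes) and 6 the mirrored rule (14.3%, against 11.2%). Among the 6 was one described as secondary wall NAC transcription factor 5 (GRMZM2G025642).

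GRMZM2G516301, a WRKY gene with the orthology of WRKY33, an Arabidopsis factor of the response to fungi, was at 28.1, 31.7 and 38.9 FPKM in zmte1-2 and 3.44, 9.36 and 9.49 FPKM in WT. A bHLH gene without further description (GRMZM5G828396) was at 40.1, 25.3 and 31.9 FPKM in zmte1-2 and 8.97, 11.6 and 12.4 FPKM in WT. A second one, described as bHLH101 (AC193786.3_FG005), was at 5.83, 11.4 and 15.9 FPKM in zmte1-2 and 2.84, 2.17 and 0.64 FPKM in WT, with a wider spread in both genotypes. No MYB or AP2/ERF gene was in the group, of 44 and 47 listed. The mirrored rule was met by 3 of each (6.82% and 6.38%, against 11.2% of all listed genes). At the 1.44% of all listed genes, families of this size would hold fewer than 1, and without zmte1-2 library 2 the rule took 1 MYB and 8 AP2/ERF genes.

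Transport across membranes was represented by water channels, MATE and ABC transporters and a mitochondrial pore. Aquaporins of the PIP type let water through the plasma membrane. PIP2-4 (GRMZM2G154628) was at 49.0, 28.3 and 47.3 FPKM in zmte1-2 and 3.6, 6.8 and 6.51 FPKM in WT, a 7.37-fold difference of the means. PIP1-5 (GRMZM2G081843) was much lower, at 2.68, 3.45 and 1.60 FPKM in zmte1-2 and 0.66, 0.41 and 0.61 FPKM in WT. The 2 genes differed in which zmte1-2 library was lowest. Of 10 listed aquaporin genes 2 met the rule (20%, against 1.44% of all listed genes) and none the mirrored rule (against 11.2%). Every zmte1-2 library was above every WT library in 3 (30%, against 11.4%) and below in 1 (10%, against 48.8%). The gene that was lower, described as PIP1-3/PIP1-4 (GRMZM2G392975), was the most abundant of those with groups that did not overlap. It was at 65.9, 149 and 60.6 FPKM in zmte1-2 and 264, 194 and 198 FPKM in WT.

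MATE proteins export small molecules, often into the vacuole or out of the cell. A gene described as DETOXIFICATION 40 (GRMZM2G470075) was at 24.2, 19.3 and 15.2 FPKM in zmte1-2 and 2.69, 5.33 and 3.82 FPKM in WT, and GRMZM2G436947, with MATE orthology, was at 14.2, 17.7 and 13.0 FPKM in zmte1-2 and 6.19, 4.61 and 3.02 FPKM in WT. Of 23 listed MATE genes 2 met the rule (8.70%, against 1.44% of all listed genes) and 2 the mirrored rule (8.70%, against 11.2%). CER5 (GRMZM2G157564) is named after an Arabidopsis ABC transporter that exports cuticular wax. It was at 2.77, 2.53 and 2.56 FPKM in zmte1-2 and 0.92, 0.98 and 1.10 FPKM in WT, with little spread in either genotype. A second gene of the ABCG orthology (GRMZM2G177812) was at 4.22, 5.05 and 4.21 FPKM in zmte1-2 and 1.36, 1.53 and 1.46 FPKM in WT. A clathrin assembly gene (GRMZM2G178955), for proteins that shape coated vesicles, was at 43.1, 36.0 and 37.5 FPKM in zmte1-2 and 7.58, 15.97 and 10.2 FPKM in WT.

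Voltage-dependent anion channel protein 2 (VDAC2, GRMZM2G115049, chromosome 6 from 161642062 to 161645447), a pore of the outer mitochondrial membrane, had the widest gap of all. It was at 25.03, 23.7 and 41.8 FPKM in zmte1-2 and was listed at 0, 0.04 and 0.04 FPKM in WT. The gene was thus nearly absent from the WT libraries and at a middling level in all zmte1-2 libraries, and the ratio of 592 between the nearest values rests on WT levels whose precision is unknown. The next listed gene, GRMZM2G090245, starts 5.18 kb away on the opposite strand (161647240 to 161648156) and is annotated as an extracellular, manganese-binding protein with nutrient reservoir activity. It was at 30.8, 5.10 and 40.5 FPKM in zmte1-2 and 0.82, 0.25 and 0.47 FPKM in WT. For this gene zmte1-2 library 3 was 7.94 times library 2, while the same library was close to library 1 for VDAC2. No other listed gene started within 200 kb of the pair.

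Lipid metabolism was represented by 3 genes. GRMZM2G101875 has the orthology of a long-chain acyl-CoA synthetase, which activates fatty acids, and was at 39.8, 35.8 and 38.3 FPKM in zmte1-2 and 15.03, 17.9 and 9.64 FPKM in WT. GRMZM2G058149, with the orthology of phospholipase A1, was at 23.8, 12.3 and 17.7 FPKM in zmte1-2 and 4.75, 4.32 and 2.68 FPKM in WT. A gene described as 3-ketoacyl-CoA synthase 6-like (AC233893.1_FG003), of the enzyme family that lengthens fatty acids for waxes, was at 2.02, 3.93 and 1.04 FPKM in zmte1-2 and 0.51, 0.28 and 0.42 FPKM in WT. The first of these was even across the zmte1-2 libraries and the last varied 3.78-fold among them. Of 18 listed 3-ketoacyl-CoA synthase genes 1 met the rule (5.56%, against 1.44% of all listed genes) and 1 the mirrored rule (5.56%, against 11.2%). Every zmte1-2 library was above every WT library in 5 of the 18 (27.8%, against 11.4%) and below in 6 (33.3%, against 48.8%).

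The wall and apoplast group was led by a polygalacturonase inhibitor gene (GRMZM2G088531), whose kind of protein blocks fungal enzymes that digest pectin. It was at 133, 136 and 103 FPKM in zmte1-2 and 40, 50.03 and 14.7 FPKM in WT. Cell wall invertase (GRMZM2G139300, chromosome 5 from 169497597 to 169502089, known as incw1), which cleaves sucrose outside the cell, was at 63.1, 31.2 and 65.2 FPKM in zmte1-2 and 7.51, 15.1 and 14.6 FPKM in WT. It was lowest in zmte1-2 library 2, where it was 2.06 times the highest WT library. A gene described as an invertase inhibitor (GRMZM2G133146) was lower in every zmte1-2 library, at 2.09, 4.12 and 1.13 FPKM in zmte1-2 and 10.1, 5.82 and 6.02 FPKM in WT. It was not alone in the table. Among 8 listed genes for invertases and their inhibitors, every zmte1-2 library was below every WT library in 3 (37.5%, against 48.8% of all listed genes). The reverse held in 1 (12.5%, against 11.4%).

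A cortical cell-delineating protein gene (GRMZM2G106324), of a type of small secreted protein, was at 7.89, 15.1 and 31.6 FPKM in zmte1-2 and 2.51, 1.32 and 1.21 FPKM in WT. Within zmte1-2 library 3 was the highest and library 1 the lowest. A glucanase gene (GRMZM2G078566) was even, at 16.6, 13.8 and 15.1 FPKM in zmte1-2 and 5.26, 6.71 and 4.81 FPKM in WT. Glycine-rich protein A3 (GRMZM2G474602), a possible wall protein, was at 16.1, 9.23 and 8.56 FPKM in zmte1-2 and 1.20, 2.88 and 2.18 FPKM in WT. The other 5 genes of this kind averaged under 6.2 FPKM in zmte1-2. They were described as a basic 7S globulin (GRMZM2G323757, 6.13 FPKM on average in zmte1-2 and 1.75 FPKM in WT), a TMV response-related protein (GRMZM2G073548, 6 and 1.92 FPKM), the desiccation-related protein PCC13-62 (GRMZM2G085260, 3.79 and 0.490 FPKM), a peroxidase by orthology (GRMZM2G450717, 3.31 and 1.04 FPKM) and purple acid phosphatase 20 (GRMZM2G434170, 2.79 and 0.700 FPKM). GRMZM2G090245, described above, also lists the peroxidase orthology, though not first. Of 121 listed genes with peroxidase in their description or first orthology, 1 met the rule (0.826%, against 1.44% of all listed genes) and 12 the mirrored rule (9.92%, against 11.2%). Without zmte1-2 library 2 these counts were 14 and 29.

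Respiration and photorespiration were represented by a gene each. External alternative NAD(P)H-ubiquinone oxidoreductase B4 (GRMZM2G145972), a mitochondrial enzyme that passes electrons to ubiquinone without pumping protons, was at 101, 213 and 103 FPKM in zmte1-2 and 28.2, 43.6 and 44.2 FPKM in WT. It was highest in zmte1-2 library 2. Glycolate oxidase 1 (GRMZM2G129246), of the photorespiratory pathway, was the most even gene of the group within zmte1-2 but not within WT, at 9.75, 9.76 and 9.40 FPKM in zmte1-2 and 3.79, 3.40 and 1.94 FPKM in WT. A listed gene on the opposite strand (AC187560.5_FG003) overlaps it, and it is not known whether reads were counted by strand.

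Among signalling and RNA genes, a probable leucine-rich repeat receptor kinase (GRMZM2G069201) stood out by its gap, at 10.1, 8.43 and 10.4 FPKM in zmte1-2 and 0.61, 2.32 and 0.37 FPKM in WT. Of 64 listed genes for such receptors 2 met the rule (3.13%, against 1.44% of all listed genes) and 14 the mirrored rule (21.9%, against 11.2%). The splicing factor gene for the U2AF 38 kDa subunit (GRMZM2G031827), whose protein takes part in recognising the end of introns, was at 11.3, 20.2 and 20.1 FPKM in zmte1-2 and 2.12, 5.27 and 3.50 FPKM in WT. A RING zinc finger gene (GRMZM2G016668) with the orthology of an E3 ubiquitin ligase was at 13.8, 14.5 and 11.8 FPKM in zmte1-2 and 2.46, 4.20 and 3.88 FPKM in WT. Genes for a protein kinase (GRMZM2G331027) and an ankyrin repeat protein (AC148152.3_FG001) averaged 4.70 and 3.27 FPKM in zmte1-2, against 0.877 and 0.623 FPKM in WT.

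**Figure D3:**
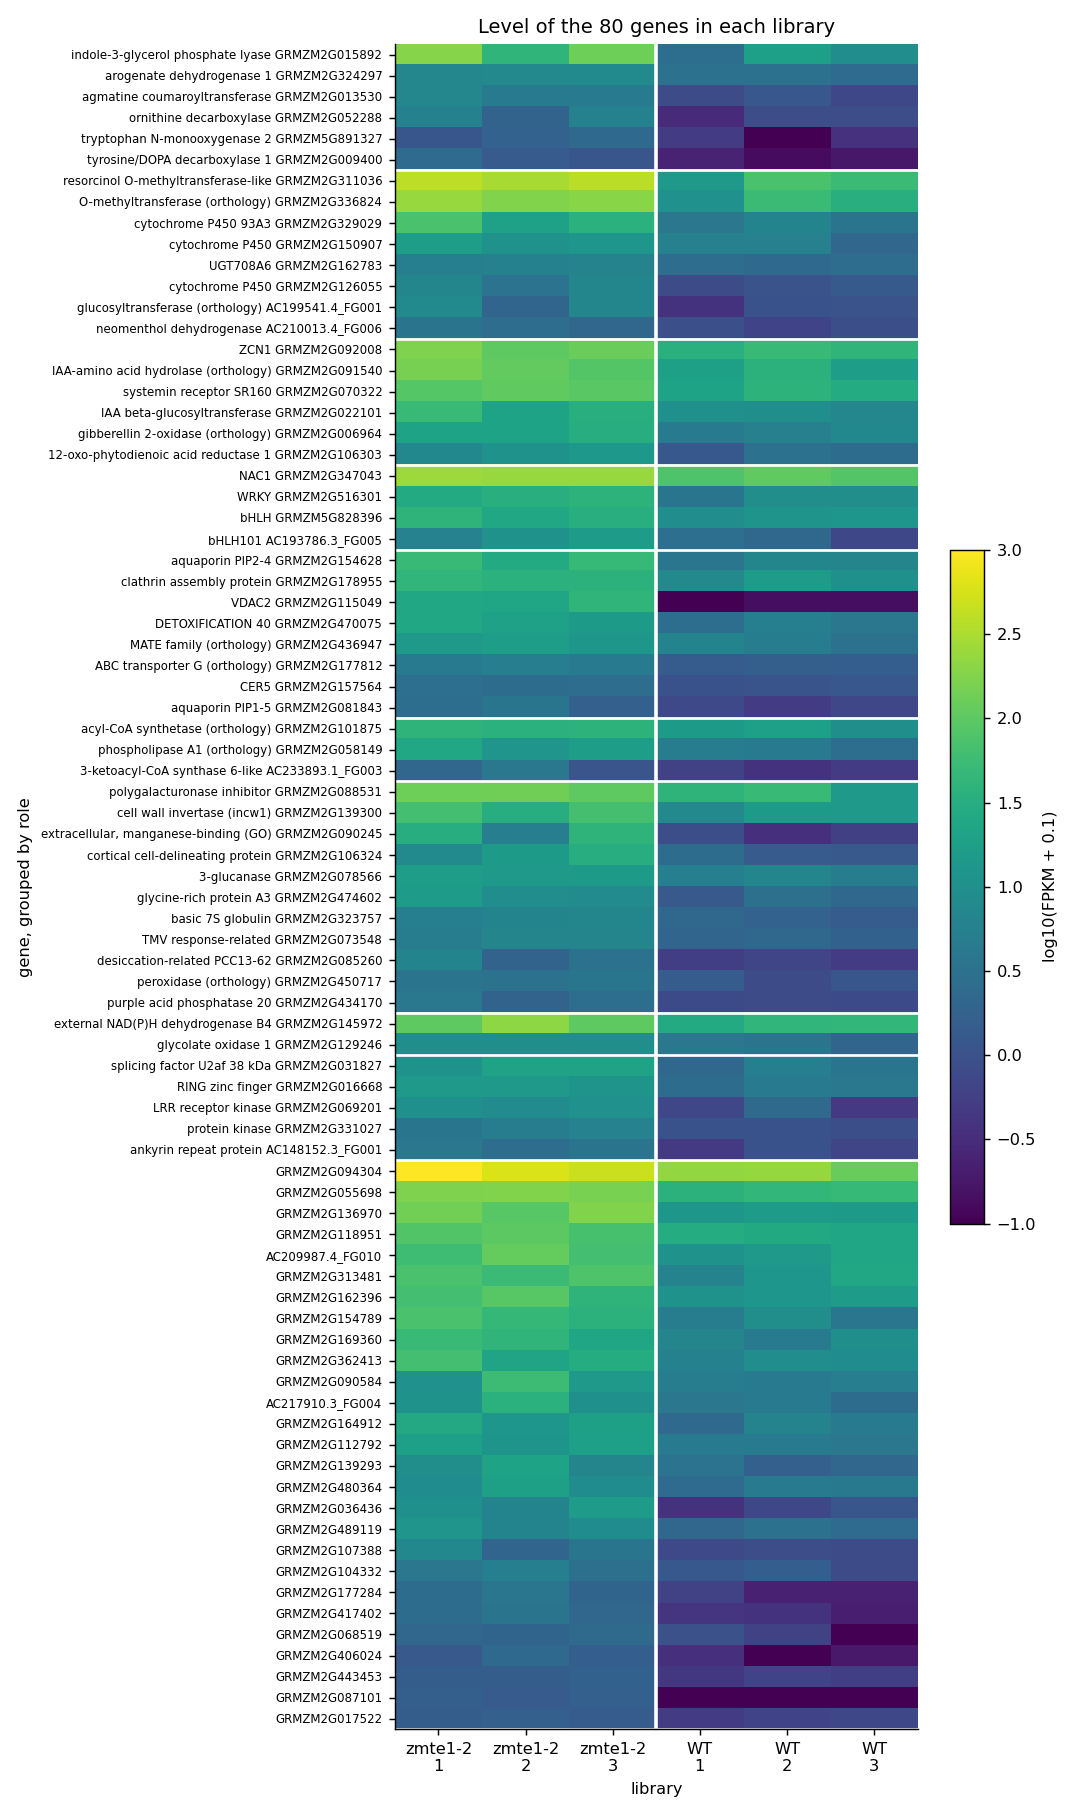
Level of each of the 80 genes in each library as log10(FPKM + 0.1), with zmte1-2 libraries left of WT libraries and white lines between role groups (27 genes without a role at the bottom). Every row is brighter on the left, as the rule requires, and the levels span from 1006 FPKM (GRMZM2G094304 in zmte1-2 library 1) to values listed at 0 in WT.

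The most abundant gene of all had no usable description. GRMZM2G094304 (chromosome 8 from 13333647 to 13335530), annotated with glutamine metabolism, was at 1006, 590 and 477 FPKM in zmte1-2 and 229, 233 and 118 FPKM in WT. Its lowest zmte1-2 library was 2.04 times its highest WT library, so it was also close to the threshold. GRMZM2G055698, described only as a membrane protein, was at 170, 178 and 155 FPKM in zmte1-2 and 36.7, 44.3 and 48.4 FPKM in WT, with even libraries in both genotypes. GRMZM2G136970, an uncharacterised gene on chromosome 10, was at 140, 92.0 and 178 FPKM in zmte1-2 and 13.2, 15.6 and 15.3 FPKM in WT, and had a wide gap for its level, with a ratio of 5.88.

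Of the other undescribed genes, GRMZM2G036436 also had a wide gap, at 10.2, 6.22 and 15.5 FPKM in zmte1-2 and 0.28, 0.63 and 1.09 FPKM in WT. GRMZM2G087101 (chromosome 3 from 209674396 to 209676204) was the only gene of the 80 listed at 0 in all WT libraries, and was at 1.55, 1.29 and 1.56 FPKM in zmte1-2. The gene was thus low but even in the mutant, and no ratio can be given for it. Including it, 2 of the 80 genes had no WT library above 0.1 FPKM, 7 had none above 0.5 FPKM and 21 had all WT libraries under 1 FPKM. GRMZM2G417402 and GRMZM2G177284, which start 7.98 kb apart on the same strand of chromosome 4, are described by the same protein record. They had nearly the same levels, at 2.54, 3.31 and 2.01 FPKM in zmte1-2 and 0.31, 0.29 and 0.12 FPKM in WT for GRMZM2G417402, and 2.53, 3.62 and 1.88 FPKM in zmte1-2 and 0.5, 0.13 and 0.13 FPKM in WT for GRMZM2G177284. Whether they are 2 genes or parts of 1 was not tested.

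The order of libraries within each genotype varied among the 80 genes. The rule sets a floor on the smallest zmte1-2 value and a ceiling on the largest WT value, so it also shapes this order, which is given as a description only. In zmte1-2, library 1 was the highest in 35 genes, library 2 in 23 and library 3 in 22. The lowest was library 1 in 16, library 2 in 37 and library 3 in 27. In WT, library 2 was the highest in 39 of the 80 genes and library 1 the lowest in 38. For comparison, 2517 other listed genes had at least 1 FPKM in every zmte1-2 library. Among these, zmte1-2 library 1 was the highest in 19.3%, library 2 in 45.6% and library 3 in 35.0%. In WT, library 1 was the highest in 54.0% of them and library 2 the lowest in 51.3%.

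Genes for secondary metabolism were lowest in zmte1-2 library 2 in 6 of 8 cases and highest there in none. That library was the lowest in 46.3% of the 80 genes and in 41.0% of the 2517 other genes. The 8 genes are few and were grouped after the values had been seen. Of the 27 genes without a role, 13 were highest in zmte1-2 library 2 and 11 lowest. Those that were highest there included GRMZM2G090584, at 10.4, 55.6 and 13.8 FPKM in zmte1-2 and 4.68, 4.36 and 5.09 FPKM in WT, and AC217910.3_FG004, at 10.8, 35.95 and 10.02 FPKM in zmte1-2 and 3.70, 4.53 and 2.48 FPKM in WT. Across the 80 genes the highest zmte1-2 library was a median of 1.75 times the lowest, with a ratio under 1.5 in 27 genes and of at least 3 in 12. A rule that asks for a high smallest value favours even genes.

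Library 2 of zmte1-2 also had most influence on how many genes met the rule. Leaving out any library can only add genes, and without that library 546 genes met the rule and 1277 the mirrored rule. Without zmte1-2 library 1 or 3 the rule took 104 or 161 genes, and without WT library 1, 2 or 3 it took 110, 198 or 99. Of the 23 families, those that gained the largest number of genes without zmte1-2 library 2 were the peroxidases (14 of 121 genes then met the rule and 29 the mirrored one), the P450 genes (15 of 50 and 6), the AP2/ERF genes (8 of 47 and 5) and the MATE genes (8 of 23 and 3). This order depends on family size, and 546 of all 5546 listed genes then met the rule. Among small families, 6 of 9 jasmonate synthesis genes and 3 of 3 genes for indole-3-glycerol phosphate lyase and tryptophan synthase then met it.

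**Figure D4:**
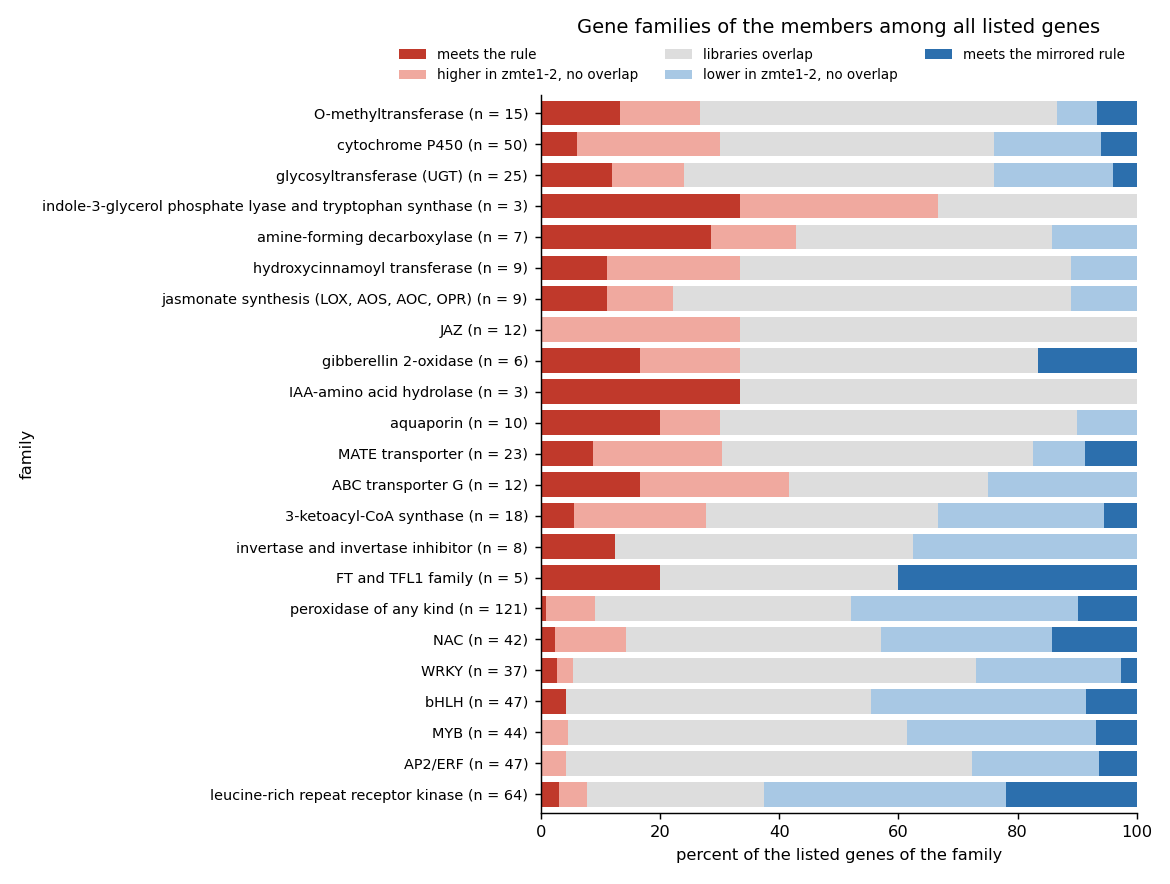
Share of the listed genes of each of 23 families (rows, number of genes in parentheses) that met the rule (red), were higher in every zmte1-2 library (pale red), overlapped (grey), were lower in every zmte1-2 library (pale blue) or met the mirrored rule (blue). The families were chosen after the values had been seen. Amine-forming decarboxylases had 2 of 7 genes in red, while leucine-rich repeat receptor kinases had 2 of 64 in red and 14 in dark blue. Over all listed genes, 1.44% met the rule and 11.2% the mirrored rule.

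Features that the rule did not use were also compared with all listed genes, without a test. Of the 5546 listed genes, 2597 reach the rule's minimum of 1 FPKM in every zmte1-2 library. Whether these features go with the level of a gene, and hence with that minimum, was not tested. The median length of the 80 genes from start to end of the gene model was 1861 bases, against 2045 bases over all listed genes, and 52 of them, or 65.0%, had a single transcript, against 70.0%. An informative protein description was found for 42 of the 80 genes, or 52.5%, against 54.3% of all listed genes. Gene ontology terms were attached to 55 of the 80 genes, or 68.8%, against 55.8% of all listed genes, so shares are given over the genes that have any term. Catalytic activity was attached to 36 of the 55 genes, or 65.5%, against 52.1% of the listed genes with a term. Oxidoreductase activity was found in 18.2% against 9.25%, metal ion binding in 23.6% against 13.4%, cofactor binding in 14.5% against 6.47% and transmembrane transporter activity in 10.9% against 4.40%. Membrane was found in 38.2% against 40.1%.

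The genes were spread over all 10 chromosomes. Chromosome 1 held most of them, 13 of 80 or 16.3%, as it did of all listed genes, with 15.9%. Chromosome 5 held 11 genes (13.8%, against 11.2% of listed genes), chromosome 6 held 10 (12.5%, against 8.53%) and chromosome 2 held 8 (10%, against 11.9%). Chromosomes 3, 4, 7 and 8 held 7 each, and chromosomes 9 and 10 held 5 each. With 80 genes the share of a single chromosome is imprecise, and the exact (Clopper-Pearson) 95% interval for chromosome 6 ran from 6.16% to 21.8%, which counts genes and includes the share of all listed genes. On chromosome 3, which carries ZmTE1, the nearest of the 80 genes were the leucine-rich repeat receptor kinase gene GRMZM2G069201 and the RING zinc finger gene GRMZM2G016668, 20.3 and 21.1 Mb from the start of ZmTE1.

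**Figure D5:**
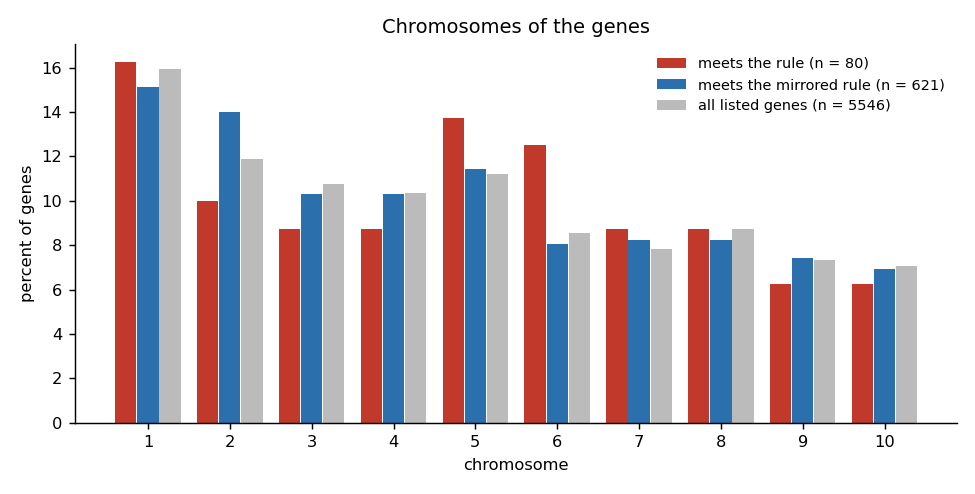
Percent of the 80 genes that met the rule (red), of the 621 genes of the mirrored rule (blue) and of all 5546 listed genes (grey) on each chromosome. Chromosome 1 held 16.3% of the 80 genes and 15.9% of all listed genes, and the 80 genes stand furthest above all listed genes on chromosome 6, at 12.5%.

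Few of the 80 genes were close neighbours. Within 50 kb, measured between starts, 4 genes had another of the group, namely the VDAC2 pair on chromosome 6 and the pair with a shared protein record on chromosome 4. Within 200 kb there were 6, with the O-methyltransferase pair, and within 1000 kb there were 12. The genes of the mirrored rule, which are more numerous and hence closer together, had 60 of 621 with a neighbour within 50 kb.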

How the data were processed

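Node RNA of 3 zmte1-2 and 3 WT libraries was sequenced at BGI from random-primed cDNA. The authors deposited 1 table of 5546 genes that they had called different between the genotypes, with FPKM per library, positions and annotation. Aligner, counting method and genome build: not given in the sources used here. Columns matched libraries by their titles, and for zmte1-2 by the mutant's other name and library number. The authors' pooled FPKM, log2 ratios, p-values and q-values were not used.

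The rule was applied to the deposited FPKM as they stand, with no pseudocount, in Python 3.11.15 with pandas 2.3.3, and the script was tested on simulated data. The members and lists were chosen with earlier results of these data known. No test between the genotypes was run. Genes were named by level, gap, function list and position, and roles and families were assigned after seeing values. No member is in the study's primer list. Word lists over descriptions and orthology placed most members, though several orthologies in a cell are unrelated to the protein description, so the text uses roles. RefSeq records (Zm-B73-REFERENCE-NAM-5.0) matched 70 of the 80 members, 51 by gene ID and 19 by protein, and gave names only. Alternatives were other folds, minima and pseudocounts, rescaling, libraries left out, pairing by number, other limits near 0 and other distances.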

Additional observations from a re-analysis of the deposited data

How the results depend on the processing

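A fold of 1.5 took 210 genes (1195 for the mirrored rule), a fold of 3 took 20 (249) and a fold of 4 took 10 (132). Without an FPKM minimum 140 genes met the rule, and with a minimum of 5 FPKM the mirrored rule took 293. A pseudocount of 1 FPKM left 41 (336), and median-of-ratios rescaling gave 459 (128). Leaving out 1 library gave 99 to 546 genes (672 to 1277), with zmte1-2 library 2 at the upper end, and leaving out both WT library 1 and zmte1-2 library 2 gave 584 (1425). With the replicate number as a block, that is, the fold asked for within same-numbered libraries, 159 genes met the rule, but the numbers share no stated plant or batch, and deviations of same-numbered libraries correlated at -0.29, -0.38 and 0.36. Word lists on descriptions alone placed 37.5% of the 80 genes, against 78.8% with orthology. No WT library above 0 was found in 1 gene and none above 0.5 FPKM in 7, against 2 at 0.1 FPKM. Within 1000 kb 12 genes had a neighbour, against 4 within 50 kb. The share of the genes on a chromosome stayed within its interval in 163 of 170 cases. Each alternative set lay within the 80 genes or held all of them, and the intervals are wide, so this count says little. Depth is unknown, which limits statements on genes near 0.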
